A study of Gallus gallus with 10 samples.

Results

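Egg white protein genes were followed in the white isthmus of the hen oviduct. The 6 genes are the rows of the expression table with the symbols SPINK7, TF, LYZ, OVST, SPINK5 and AVD, and they were 6 of 17617 rows. All 6 had reads in every hen and passed the low-count filter, which kept 12858 genes. Their Ensembl identifiers are ENSGALG00000003512 for SPINK7, ENSGALG00000006453 for TF, ENSGALG00000009963 for LYZ, ENSGALG00000053694 for OVST, ENSGALG00000031496 for SPINK5 and ENSGALG00000025945 for AVD. They were taken by symbol, and earlier results of these data were known when they were chosen.

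Egg white is secreted around the yolk mainly in the magnum, the oviduct segment that the egg passes before it reaches the isthmus. In the isthmus, the fibers of the eggshell membranes are then laid over the egg white. The proteins of egg white are known as nutrient binders, as enzymes that attack bacteria and as inhibitors of proteases, and several of them are also known as constituents of the eggshell membranes. Ovotransferrin, encoded by TF, binds iron, and avidin, encoded by AVD, binds biotin. Lysozyme, encoded by LYZ, cleaves the bacterial cell wall. The protease inhibitors are ovomucoid (SPINK7) and ovoinhibitor (SPINK5), which are built from Kazal domains, and ovostatin (OVST), a protein of the alpha-2-macroglobulin family. In the RefSeq gene list of the chicken assembly GRCg7b, SPINK5 and SPINK7 were neighbors with 0 genes listed between them, and the 6 genes lay on 4 chromosomes.

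Each library came from the isthmus of a single dwarf white hen, 5 of them translucent and 5 opaque. The labels give wild type as the genotype of both groups, and no treatment or age. Hens of the translucent group laid eggs with translucent shells and were chosen for thinner eggshell membranes, hens of the opaque group laid opaque eggs and were chosen for normal membranes, and all came from 1 selected flock. For the eggs in the isthmus at sampling, the authors report that membrane thickness did not differ significantly between the groups. The comparison asks whether isthmus expression differs between hens of these shell types. Whole isthmus tissue was taken, so fewer cells of a type and less RNA per cell cannot be told apart. COL10A1, a collagen of the eggshell membrane fibers that serves as an isthmus marker, ranked 2 among all genes at 28714 FPKM (fragments scaled to gene length and to the mapped total). All 4 isthmus markers found in the table passed the low-count filter, but their levels differed widely. LOXL2 ranked 14, QSOX1 ranked 184 and LOX ranked 10450 at 2.13 FPKM. CREMP, also on the isthmus list, was not matched in the table. Reads counted on genes were between 15245165 and 19014779 in translucent hens and between 11601225 and 17309287 in opaque hens. Along the first principal component, which took 39.8% of the variance, Translucent-1 at 54.7 and Opaque-5 at 78.3 stood apart, the other 8 being found from -36.4 to 11.9. These hens also had the lowest scaling factors, 0.855 and 0.869, so results that rest on them are given with and without them.

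SPINK7 was the most abundant transcript of the white isthmus. Its mean level of 72562 ± 22128 FPKM (SD, n = 10) was the highest of all 17617 rows, and it ranked 1 in each of the 10 hens. TF followed among the 6 genes with 4771 ± 1447 FPKM and rank 6, between COX3, a mitochondrial gene of the respiratory chain, at rank 5 and RARRES1, known from the eggshell matrix, at rank 7. Within single hens TF ranked from 4 in Opaque-2 to 13 in Opaque-1. The genes of ovomucoid and ovotransferrin were therefore among the 13 most abundant rows in every hen.

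The other 4 genes were far less abundant. LYZ averaged 595 ± 291 FPKM (SD, n = 10) at rank 98, next to JCHAIN, the joining chain of secreted antibodies, at rank 99. OVST averaged 227 ± 88.8 FPKM at rank 263, beside SMARCA2 and SLC13A5. SPINK5 with 83.6 ± 56.0 FPKM at rank 888, beside CLTC and SMIM15, and AVD with 67.6 ± 45.1 FPKM at rank 1123, beside IRAK2 and BAG3 were the lowest. The places of these genes varied widely between hens: LYZ ranked from 38 to 293, OVST from 141 to 900, SPINK5 from 279 to 2053 and AVD from 346 to 3233.

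**Figure D1:**
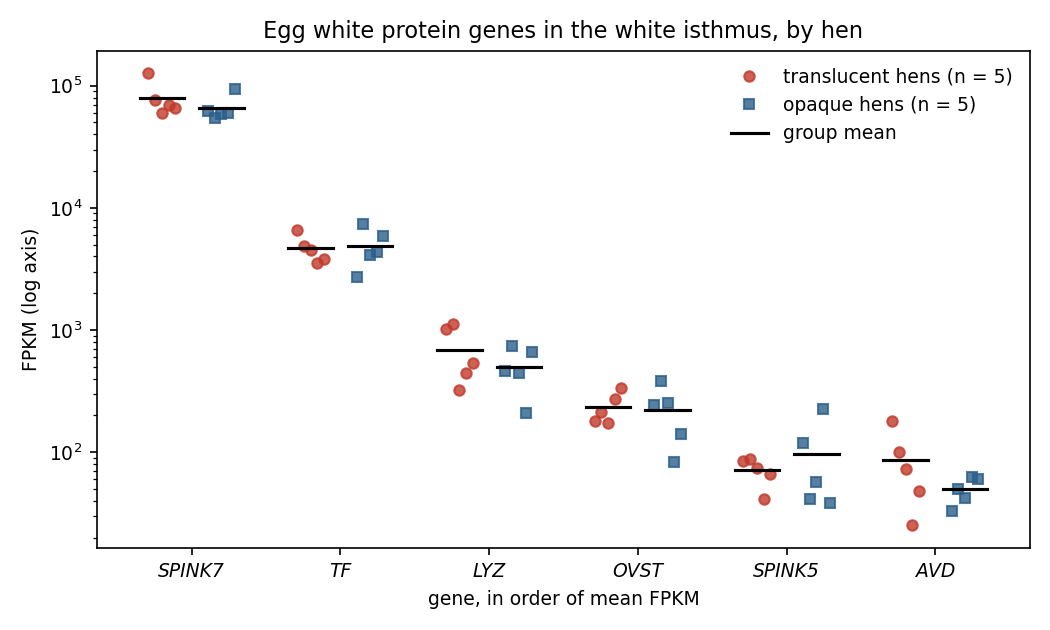
FPKM of the 6 egg white genes on a log axis, with a point for each hen (translucent hens left of opaque hens, n = 5 each) and a bar for the group mean. SPINK7 lies above every other gene in all 10 hens, and the points of both groups overlap for each gene.

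The order of levels was compared within hens on log2(FPKM + 1) by an exact two-sided sign-flip test, with Benjamini-Hochberg adjustment over the 5 steps. SPINK7 exceeded TF in 10 of 10 hens, with a median ratio of 15.8 (adjusted p = 0.00326). TF exceeded LYZ in 10 of 10 hens with a median ratio of 8.42, and LYZ exceeded OVST in 10 of 10 hens with a median ratio of 1.92 (adjusted p = 0.00326 for both, exact sign-flip test). These p-values before adjustment, 0.00195, are the smallest that 10 hens allow. OVST exceeded SPINK5 in 9 of 10 hens, with a median ratio of 2.95 (adjusted p = 0.0146, exact sign-flip test). The exception was Opaque-4, the hen with the highest SPINK5 and the lowest OVST of all. SPINK5 and AVD could not be ordered, since SPINK5 was the higher in 6 of 10 hens (adjusted p = 0.336, exact sign-flip test), and AVD had the higher mean without Opaque-4.

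By reads, without correction for gene length, the 6 genes together took a substantial part of each library. Their summed share of the counts was 13.8% in Translucent-1 (95% Wilson interval 13.78 to 13.81%), 8.64% in Translucent-2, 6.95% in Translucent-3, 7.65% in Translucent-4 and 7.43% in Translucent-5. In the opaque hens it was 6.67% in Opaque-1, 7.51% in Opaque-2, 6.78% in Opaque-3, 6.93% in Opaque-4 and 10.6% in Opaque-5 (Wilson interval 10.54 to 10.58%). Hence 1 hen of each group stood high, the other 8 lay between 6.67 and 8.64%, and the groups overlapped. The mean was 8.89 ± 2.81% in translucent hens and 7.69 ± 1.64% in opaque hens (SD, n = 5 each), a difference of 1.20 percentage points, which was smaller than the SD of either group and was -0.021 without Translucent-1. Wilson intervals cover counting error only and not the spread between hens. Copies of a molecule made by PCR are counted as separate reads, so the intervals can be too narrow.

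Nearly all of this share came from ovomucoid and ovotransferrin. SPINK7 alone held 11.5, 6.91, 5.40, 6.37 and 6.02% of the counts in translucent hens 1 to 5 and 5.64, 4.93, 5.32, 5.44 and 8.57% in opaque hens 1 to 5. TF held between 1.12 and 2.11% in translucent hens and between 0.867 and 2.34% in opaque hens. No hen gave more than 0.178% of its counts to any of OVST, LYZ, SPINK5 or AVD, and AVD at its lowest, in Translucent-4, still rested on 375 reads. Within the summed counts of the 6 genes, SPINK7 made up 81.1 ± 2.4% in translucent hens and 77.7 ± 7.1% in opaque hens (SD, n = 5 each). Opaque-2 was the hen with the lowest part of SPINK7, 65.7%, and the highest part of TF, 31.2%. The ratio of SPINK7 to TF in FPKM accordingly lay between 13.2 and 19.9 in translucent hens and between 7.36 in Opaque-2 and 22.7 in Opaque-1.

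**Figure D2:**
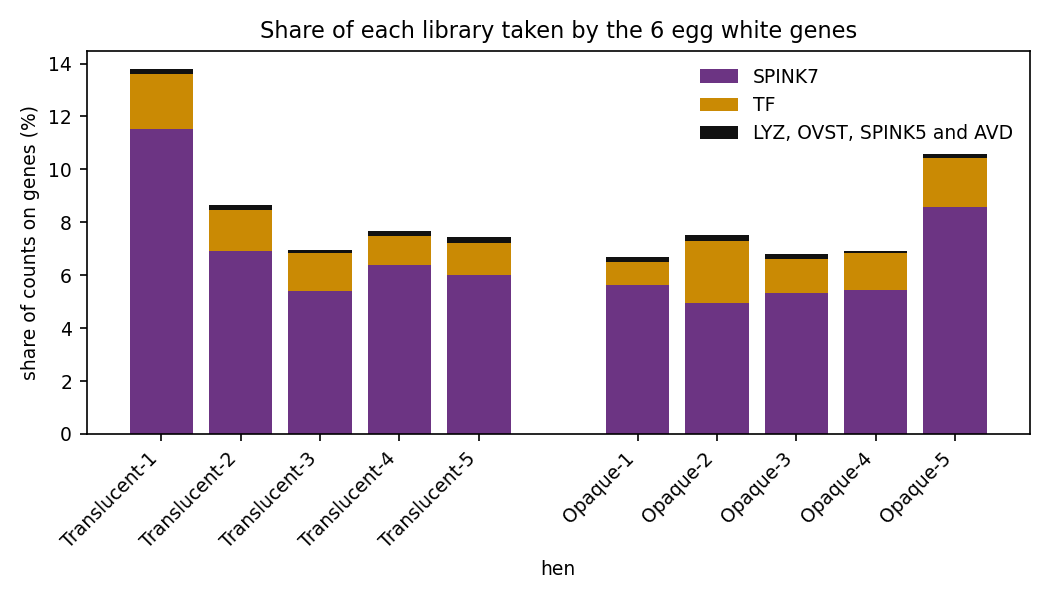
Share of the counts on genes taken by SPINK7, TF and the other 4 egg white genes, in percent, with a stacked bar for each hen (translucent hens left of opaque hens). SPINK7 fills most of every bar, and Translucent-1 at 13.8% and Opaque-5 at 10.6% are the tallest of their groups.

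For none of the 6 genes was a difference between translucent and opaque hens detected beyond the spread between hens. Expression was compared in CPM (counts scaled to library size and by TMM) with the quasi-likelihood test of edgeR, adjusting by Benjamini-Hochberg over all 12858 genes, and a gene was called at an adjusted p-value under 0.05 with an absolute log2 fold change over 1. No egg white gene was called, against a background of 0% of the genes tested (0 of 12858) by edgeR and 0.0246% (4 of 16273) by DESeq2, whose 4 calls hold none of the 6. At an unadjusted p-value under 0.05, edgeR likewise found 0 of the 6, where 2.19% of all tested genes (282 of 12858) were found. The groups overlapped for all 6 genes, and 0.443% of all tested genes had groups that did not. Of the 6 log2 fold changes 4 were above 0, with a median of 0.20, while 48.6% of all tested genes were above 0, with a median of -0.01. Every adjusted p-value given below from this test was 1. Both the approximate 95% intervals, from the standard error (SE), and the p-value of an exact permutation of the hens between groups (two-sided, on log2 CPM, with 0.0079 as the smallest it can give), are given beside it.

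Among the nutrient binders, TF was measured at 24721, 15223, 14029, 10755 and 11244 CPM in translucent hens 1 to 5 and at 7998, 22856, 12320.4, 14164 and 21588 CPM in opaque hens 1 to 5. Both groups thus spanned nearly the same range, with means of 15194 ± 5644 CPM in translucent hens and 15785 ± 6304 CPM in opaque hens (SD, n = 5 each). TF had a log2 fold change of -0.06 (SE 0.31, interval -0.66 to 0.55, adjusted p = 1 from edgeR, exact permutation p = 0.929). AVD was measured at 176, 82.6, 59.7, 20.2 and 37.5 CPM in translucent hens 1 to 5 and at 25.4, 41.0, 33.1, 53.2 and 57.8 CPM in opaque hens 1 to 5. The highest 3 and also the lowest of the 10 values for avidin belonged to translucent hens. AVD averaged 75.2 ± 61.1 CPM in translucent hens and 42.1 ± 13.5 CPM in opaque hens (SD, n = 5 each), and its log2 fold change of 0.84 was the largest of the 6 (SE 0.48, interval -0.10 to 1.78, adjusted p = 1 from edgeR, exact permutation p = 0.397). Without Translucent-1 it was 0.25, and with the 6 hens numbered 1 to 3 it was 1.69, which after adjustment over all genes was not called either (unadjusted p = 0.0027, adjusted p = 0.619, edgeR).

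LYZ, the lysozyme gene, was measured at 699, 639, 186, 248 and 294 CPM in translucent hens 1 to 5 and at 249.8, 418, 245, 124 and 442 CPM in opaque hens 1 to 5. Translucent-1 and Translucent-2 lay above all opaque hens, whereas the other 3 translucent hens lay within the opaque range. The means were 413 ± 238 CPM in translucent hens and 296 ± 133 CPM in opaque hens (SD, n = 5 each), with a log2 fold change of 0.48 (SE 0.42, interval -0.34 to 1.31, adjusted p = 1 from edgeR, exact permutation p = 0.397). The estimated counts of LYZ were fractional in all 10 hens, while those of the other 5 genes were whole in every hen. Reads of LYZ could therefore have been divided with another row, and its level is uncertain to that extent.

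The protease inhibitor genes were led by SPINK7, with 134595, 68028, 53138, 61209.8 and 56214 CPM in translucent hens 1 to 5 and 51997, 48111, 50048, 55228 and 98719 CPM in opaque hens 1 to 5. Apart from Translucent-1 and Opaque-5 the 8 hens lay within a narrow band between 48111 and 68028 CPM. SPINK7 averaged 74637 ± 33987 CPM in translucent hens and 60821 ± 21349 CPM in opaque hens (SD, n = 5 each), with a log2 fold change of 0.30 (SE 0.30, interval -0.29 to 0.88, adjusted p = 1 from edgeR, exact permutation p = 0.452). It was -0.029 without Translucent-1. Without both Translucent-1 and Opaque-5 it was 0.22 with an SE of 0.10, and the unadjusted p-value from edgeR was then 0.0501. The 6 hens numbered 1 to 3 gave 0.77 (unadjusted p = 0.044, adjusted p = 0.619, edgeR).

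SPINK5, the ovoinhibitor gene next to SPINK7 in the genome, was measured at 162, 144, 123, 65.3 and 104 CPM in translucent hens 1 to 5 and at 183, 68.1, 89.0, 373 and 72.0 CPM in opaque hens 1 to 5. Opaque-4 alone was more than 2 times as high as every other hen. SPINK5 averaged 120 ± 37.4 CPM in translucent hens and 157 ± 129 CPM in opaque hens (SD, n = 5 each), with a log2 fold change of -0.39 (SE 0.46, interval -1.29 to 0.50, adjusted p = 1 from edgeR, exact permutation p = 0.833) that was 0.21 without Opaque-4. OVST, the ovostatin gene, was measured at 982, 987, 806, 1242 and 1463 CPM in translucent hens 1 to 5 and at 1053, 1739, 1115, 395 and 767 CPM in opaque hens 1 to 5. The opaque hens held both the highest and the 2 lowest values. OVST averaged 1096 ± 257 CPM in translucent hens and 1014 ± 495 CPM in opaque hens (SD, n = 5 each), with a log2 fold change of 0.11 (SE 0.32, interval -0.52 to 0.74, adjusted p = 1 from edgeR, exact permutation p = 0.603). It was -0.081 without Opaque-4.

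**Figure D3:**
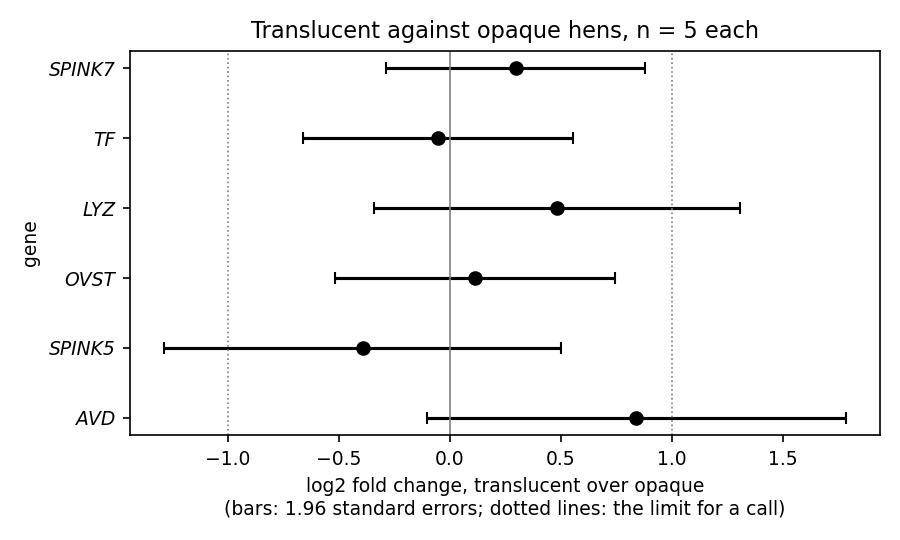
Log2 fold change of translucent over opaque hens for the 6 egg white genes from edgeR (n = 5 hens each), with bars for the approximate 95% interval and dotted lines at the limits of 1 and -1 for a call. All 6 intervals include 0, and those of LYZ, SPINK5 and AVD also reach past a limit, so a change of that size is not excluded for these 3 genes.

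Over all 10 hens, the 6 genes varied more than most of the 200 genes nearest to each in mean CPM, and for SPINK7 this rested on Translucent-1 and Opaque-5. The coefficient of variation (SD over mean of CPM, 10 hens) was 40.9% for SPINK7, 36.5% for TF, 54.1% for LYZ, 35.5% for OVST, 66.5% for SPINK5 and 77.1% for AVD, while the median over all tested genes was 24.1% and that over the 100 most abundant genes 19.6%. Set among the 200 genes nearest in mean CPM, the 6 genes lay at percentiles 90.0, 86.5, 96.5, 88.0, 99.5 and 99.5, in the same order. For SPINK7 and TF, at ranks 1 and 3 by mean CPM, these sets are not of like abundance. SPINK7 had a mean of 67729 CPM and TF of 15490 CPM, whereas OVST at rank 74 already had 1055 CPM. Without Translucent-1 and Opaque-5 the coefficient of variation of SPINK7 was 11.64%, at percentile 41.5 among the same 200 genes, whose median was then 13.0%, and without Translucent-1 alone it was 25.9%. For AVD it was 42.9% without Translucent-1, and for SPINK5 38.6% without Opaque-4, at percentiles 96.5 and 96.0. Leaving out any other single hen, or Translucent-1 and Opaque-5 together for TF, LYZ, OVST and SPINK5, moved these values by less than 1.5 times. By coefficient of variation over 10 hens, the genes of ovostatin, ovotransferrin and ovomucoid varied less than those of lysozyme, ovoinhibitor and avidin. For ovoinhibitor against ovomucoid this rested on Opaque-4, without which SPINK5 was at 38.6% and SPINK7 at 42.0%. From the lowest to the highest hen, SPINK7 differed 2.80 times, TF 3.09 times, OVST 4.40 times, LYZ 5.65 times, SPINK5 5.70 times and AVD 8.70 times. Which group was the more variable changed from gene to gene. AVD had a coefficient of variation of 81.2% in translucent hens and 32.1% in opaque hens, whereas SPINK5 had 31.3% in translucent hens and 82.4% in opaque hens, and OVST had 23.5% in translucent hens and 48.9% in opaque hens. These differences in spread between the groups were not tested, and with 5 hens a single hen sets much of them.

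Covariation was examined by Pearson's r and Spearman's rho of log2 CPM over the 10 hens for the 15 pairs, with permutation tests and Benjamini-Hochberg adjustment over the 15. All points share libraries and depth between the genes of a pair. No pair passed the adjusted threshold, by r or by rho, and the smallest adjusted p-value of r was 0.111. In 9 pairs r was above 0 and in 6 below 0, between -0.73 and 0.73 with a median of 0.33. The sign of r thus differed between pairs, and whether the 6 genes move as 1 block across hens was not tested. SPINK7, TF, LYZ and AVD had r above 0 in all 6 pairs among them, from 0.56 to 0.73, whereas OVST and SPINK5 had r between -0.34 and 0.45 with these 4 genes and -0.73 with each other. With counts scaled to library size alone, the pairs among SPINK7, TF, LYZ and AVD had lower r. It ranged from 0.40 for SPINK7 with TF to 0.65 for SPINK7 with AVD (smallest adjusted permutation p = 0.279).

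**Figure D4:**
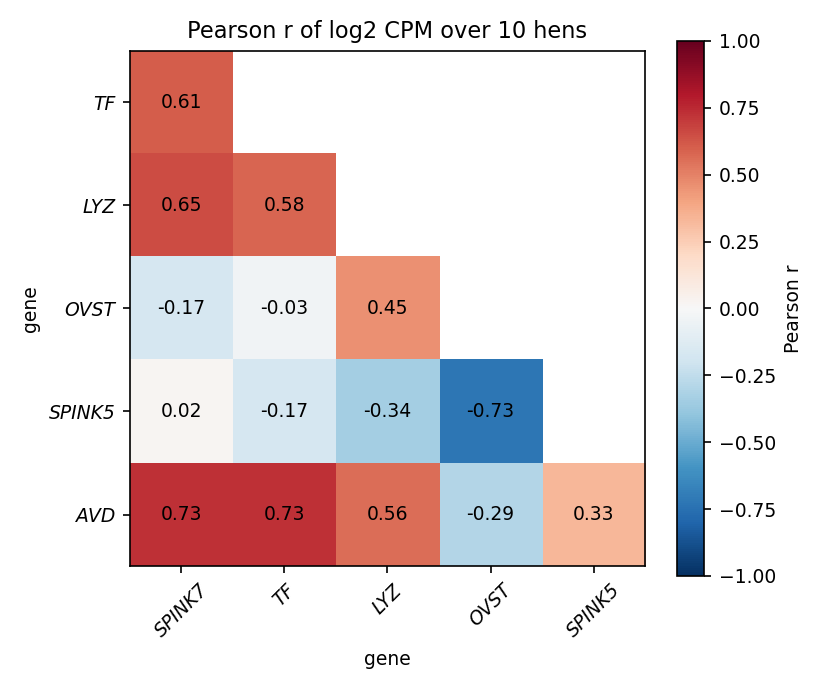
Pearson's r of log2 CPM over 10 hens for the 15 pairs of egg white genes, with genes on both axes and the color scale from -1 to 1. The pairs of SPINK7, TF, LYZ and AVD have r between 0.56 and 0.73, and OVST with SPINK5 has r of -0.73.

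An unadjusted p-value of r under 0.05 was found for 4 pairs. TF and AVD, the pair of nutrient binders, had r = 0.73 (permutation p = 0.016, adjusted 0.111) and rho = 0.79 (permutation p = 0.0082, adjusted 0.124). Computed on deviations from the group means, r was 0.77 (exact permutation within groups, p = 0.0022, adjusted 0.0333), and this was the only pair past the adjusted threshold in that form. Leaving out Translucent-1 and Opaque-1, the hens farthest from the median in TF, gave r = 0.48 (permutation p = 0.228), and leaving out Translucent-1 and Opaque-5 gave 0.56 (permutation p = 0.138), so part of the relation rests on these hens. SPINK7 had r = 0.73 with AVD (permutation p = 0.019, adjusted 0.111; rho = 0.52, p = 0.135) and r = 0.65 with LYZ (permutation p = 0.041, adjusted 0.155; rho = 0.56, p = 0.097). Without Translucent-1 and Opaque-5, which are also the hens farthest from the median in SPINK7, these values were 0.30 and 0.36. The ovomucoid gene and TF, with r = 0.61 over 10 hens (permutation p = 0.068, rho = 0.33), had r = -0.15 without those hens. The relations of SPINK7 to TF, LYZ and AVD therefore rest on Translucent-1 and Opaque-5. Leaving out these hens also gave r = 0.23 for LYZ with AVD and r = 0.32 for TF with LYZ, against 0.56 and 0.58 over 10 hens, and LYZ with AVD had r = -0.079 without Translucent-1 and Translucent-2, the hens farthest from the median in LYZ.

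OVST and SPINK5, both protease inhibitors, had r = -0.73 (permutation p = 0.022, adjusted 0.111) and rho = -0.56 (permutation p = 0.098). This relation did not rest on Translucent-1 and Opaque-5, without which r was -0.87 (permutation p = 0.0078, adjusted 0.118). It did rest on Opaque-2, with the highest OVST, and Opaque-4, with the lowest OVST and the highest SPINK5, since r was -0.10 without these. Within groups, r was -0.56 over the 5 translucent hens and -0.76 over the 5 opaque hens, values from too few hens for a test. Across the 5 other ways of computing r that were tried, 11 of the 15 pairs kept their sign.

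Genes of neighboring oviduct segments and of other cell types were read beside these values. The magnum list, of which 9 genes were in the table and 6 passed the low-count filter, summed to between 932 and 13953 CPM in translucent hens and between 908 and 1573 CPM in opaque hens. The high value was that of Translucent-1 and was mostly ovalbumin (OVAL), the main protein of egg white and a product of the magnum, at 11769.7 CPM. OVALX was at 0 in 8 hens and BPIFB2 in 7 hens. The magnum sum had r = 0.71 with SPINK7 (permutation p = 0.053), r = 0.41 with TF and r = 0.52 with AVD over the 10 hens, and -0.17, 0.10 and -0.20 without Translucent-1 and Translucent-4, the hens farthest from the median of that sum. With LYZ, OVST and SPINK5 it had r of 0.58, 0.26 and -0.05 over the 10 hens. Without Translucent-1 and Translucent-4 these values were 0.64, 0.87 and -0.54. Without Translucent-1 and Opaque-5, r with the magnum sum was 0.33 for SPINK7, -0.05 for TF and -0.55 for AVD. It was then 0.42 for LYZ, 0.66 for OVST and -0.73 for SPINK5. Opaque-5, with the other high value of SPINK7, had a magnum sum of 1069 CPM and OVAL at 71.7 CPM, within the range of the other opaque hens. Most of the sum in Opaque-5 came from MUC5B at 472 CPM and AvBD11 at 454 CPM, genes with reads in all 10 hens. SPINK7 ranked 1 also in Opaque-3 and Opaque-4, in which OVAL was at 1.60 and 1.66 CPM. The part of magnum RNA in the levels of the 6 genes was not tested.

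Over 36 relations between the 6 genes and 6 such lists, none passed the adjusted threshold (smallest adjusted p of r = 0.114) and 4 had an unadjusted permutation p-value under 0.05. OVST with the leukocyte list was the strongest of them, at r = 0.87 (permutation p = 0.0032, adjusted 0.114) and rho = 0.88 (permutation p = 0.0017, adjusted 0.0605), and r was 0.76 without Translucent-5 and Opaque-4, the farthest hens. All 5 leukocyte markers passed the low-count filter, none was at 0, and their sum lay between 1027 and 3646 CPM in translucent hens and between 427 and 1561 CPM in opaque hens. JCHAIN was most of this sum in every hen except Opaque-4, the lowest, where JCHAIN was at 157 CPM and CD74 at 237 CPM. TF had r = 0.67 with the isthmus list (permutation p = 0.030, adjusted 0.267; rho = 0.77), and 0.68 without its 2 farthest hens. This list summed to between 63975 and 73448 CPM in translucent hens and between 65212 and 82249.7 CPM in opaque hens. Most of this sum was COL10A1, at 50799 to 62787.5 CPM in translucent hens and 55438.5 to 66328 CPM in opaque hens. LOXL2 was lowest in Translucent-1 (5050 CPM) and Opaque-5 (5234 CPM) and highest in Opaque-2 (16906 CPM), all hens with high TF. The relation of TF to single isthmus markers was not tested. SPINK7 and AVD had r of -0.69 (permutation p = 0.021, adjusted 0.257) and -0.71 (permutation p = 0.018, adjusted 0.257) with the red blood cell list, and r was -0.54 and -0.59 without Translucent-1 and Translucent-5. Without Translucent-1 and Opaque-5, r was -0.25 for SPINK7 and -0.50 for AVD. That list summed to between 75.1 and 204 CPM in translucent hens and between 93.5 and 188 CPM in opaque hens, and HBE and HBBR were at 0 in all 10 hens. Its members did not go 1 way. SLC4A1 had a log2 fold change of -1.62, against 0.40 for HBBA, 0.48 for HBA1 and 0.37 for HBAD, and none of these was called. The groups did not overlap for SLC4A1, as for 0.443% of all tested genes. It reached at most 23.0 CPM in translucent hens and was at least 25.6 CPM in opaque hens (unadjusted p = 0.00019 from edgeR, exact permutation p = 0.0079). In Opaque-2, SLC4A1 made up 63.3 of the 188 CPM. For the shell gland list, 7 of its 11 genes in the table passed the low-count filter, and it summed to between 5182 and 7111 CPM in translucent hens and between 5786 and 8345 CPM in opaque hens. Most of this sum was RARRES1, at 4384 to 6205 CPM in translucent hens and 5068 to 7125 CPM in opaque hens. All 8 smooth muscle genes passed, and their sum lay between 355 and 1122 CPM in translucent hens and between 498 and 749 CPM in opaque hens. With the 6 genes, these sums had r between -0.25 and 0.48 for the shell gland and between 0.054 and 0.46 for smooth muscle. The part of these cells in the values was not tested.

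The genes whose log2 CPM followed each egg white gene most closely were taken from 8665 genes with a mean of at least 10 CPM, by Pearson's r over the 10 hens and as a description without a test. For SPINK7 these were CD63 (r = 0.98), a tetraspanin of secretory vesicles, YARS (0.98), the tyrosyl-tRNA synthetase, and PPP4R1 (0.97). They remained at 0.90, 0.80 and 0.75 without Translucent-1 and Opaque-5. For TF they were SLC36A1 and HKDC1 (0.92 each) and the row described as GLIS2 (0.90), and for AVD they were CARS2 and NNF1 (0.91 each) and the row described as TSPAN7 (0.88). LYZ had WIF1 and PYCR1 (0.85 each) and MGP (0.83), OVST had GPR1 (0.93), SORCS1 (0.92) and CHORDC1 (0.91), and SPINK5 had ORMDL1 (0.87), UBLCP1 (0.85) and KLHL9 (0.84). Without Translucent-1 and Opaque-5, r was 0.85, 0.86 and 0.86 for TF and 0.78, 0.83 and 0.70 for AVD, in the order named. It was then 0.83, 0.84 and 0.73 for LYZ, 0.98, 0.97 and 0.91 for OVST, and 0.90, 0.93 and 0.82 for SPINK5. None of the 6 egg white genes was among the 3 genes closest to another. Since 8665 genes were compared over 10 hens, this cannot tell whether the 6 genes covary.

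Of the other genes known for egg white proteins, 20 from a list of symbols were in the table and 12 passed the low-count filter. None was called, and edgeR gave an unadjusted p-value under 0.05 for 4 of the 12, against 2.19% of all tested genes. The list was chosen with earlier results of these data known, so this comparison is not a test of the list. The log2 fold change was above 0 for 9 and below 0 for 3 of them, with a median of 0.18. The most abundant by FPKM among the listed genes were HEP21 at rank 73, OVAL at 82, CST3 (cystatin) at 83, and AvBD11, an avian defensin, at 84. The rank of OVAL came from Translucent-1 and was 428 without that hen, while HEP21, CST3 and AvBD11 then ranked 83, 84 and 85. The ovodefensin row OvoDA1-2, which the list did not hold and which was named after its value was seen, ranked 9 at 3558 FPKM, above all of them. The other 8 genes, among them ORM1 and VMO1, had few reads, and 5 of them never exceeded the floor of 3 counts, which is between 0.158 and 0.259 CPM. The others reached at most 20 counts for OVALX, 8 for MUC6 and 5 for AVR2.

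OVAL was measured at 11769.7, 45.6, 17.7, 1441 and 479.9 CPM in translucent hens 1 to 5 and at 54.0, 200.1, 1.60, 1.66 and 71.7 CPM in opaque hens 1 to 5. Ovalbumin thus lay above all opaque hens in 3 translucent hens and within their range in Translucent-2 and Translucent-3. Its log2 fold change was 5.39 (SE 1.84, adjusted p = 1 from edgeR, exact permutation p = 0.103), and that of OVALY, the ovalbumin-related protein gene, was 4.94 (SE 1.46, adjusted p = 1 from edgeR, exact permutation p = 0.040). OVALY too was highest in Translucent-1, at 505 CPM. It lay between 2.77 and 90.4 CPM in the other translucent hens and between 0.080 and 12.3 CPM in opaque hens. Both fold changes include Translucent-1 and were not computed without it. OvoDA1, an ovodefensin, averaged 122 ± 45.6 CPM in translucent hens and 61.0 ± 20.9 CPM in opaque hens (SD, n = 5 each, log2 fold change 0.995 ± 0.30 SE, adjusted p = 1 from edgeR, exact permutation p = 0.0238), with fractional counts in 9 hens. WFDC2 averaged 36.8 ± 9.20 CPM in translucent hens and 56.1 ± 13.8 CPM in opaque hens (log2 fold change -0.61 ± 0.21 SE, adjusted p = 1 from edgeR, exact permutation p = 0.0238). Unlike OVAL, which spread over several orders of magnitude, the 6 genes differed between their lowest and highest hens by at most 8.70 times, and SPINK7 by 2.80 times. A narrow range was not particular to the 6 genes. Over the 10 hens, CST3 lay between 423 and 794 CPM and AvBD11 between 232 and 671 CPM.

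**Figure D5:**
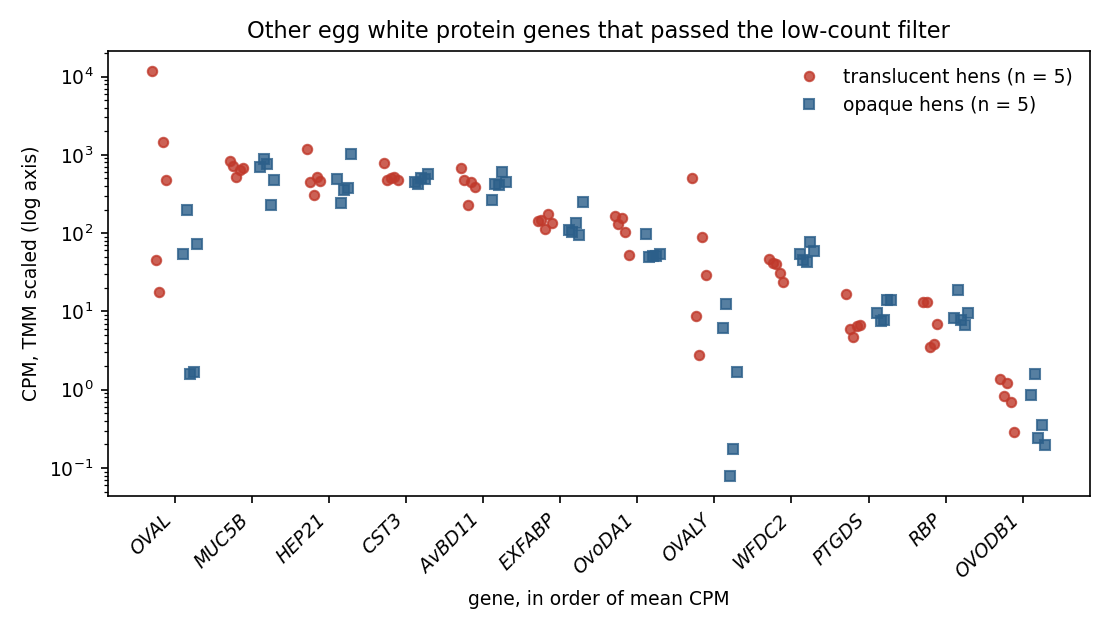
TMM-scaled CPM on a log axis of the 12 other egg white protein genes that passed the low-count filter, with a point for each hen (translucent hens left of opaque hens, n = 5 each). OVAL and OVALY spread over several orders of magnitude between hens, up to 11769.7 CPM for OVAL in Translucent-1.

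Rows described as related to the 6 genes had lower mean levels. Rows described as avidin-like or avidin-related reached at most 3.25 FPKM on average, against 67.6 FPKM for AVD, and the row described as ovostatin-like 2.52 FPKM, against 227 FPKM for OVST. Melanotransferrin (MELTF) was at 25.1 FPKM, against 4771 FPKM for TF. Among genes of Kazal inhibitors, the row described as Kazal type 2 was at 28.5 FPKM and a row described as Kazal-type 5-like at 17.8 FPKM, against 83.6 FPKM for SPINK5 and 72562 FPKM for SPINK7, and SPINK6 had 0 reads in all 10 hens. The g-type lysozyme rows did not exceed 2.67 FPKM, against 595 FPKM for LYZ. Among the rows named for each gene, the egg white gene had the highest mean FPKM. These rows were chosen after their values were seen, so this is a description only.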

How the data were processed

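White isthmus tissue of 5 translucent and 5 opaque hens was sequenced, and the hens served as replicates. The authors used fastp, Bowtie2 against rRNA, HISAT2, StringTie and RSEM. The genome build is not given in the sources used here, so no coordinates are printed. The authors deposited expected counts, which RSEM estimated per gene and hen without normalization (6.73% were fractional, because RSEM divides reads between genes), and FPKM, which they corrected for gene length and depth.

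Counts were rounded. Totals and the floor of 3 counts limit the depth, and floors cover counting error only. Analyses used edgeR 4.0.16 (TMM, filterByExpr, quasi-likelihood test), DESeq2 1.42.0 and limma 3.58.1 in R 4.3.3, and numpy 2.4.6, scipy 1.17.1 and matplotlib 3.10.9 in Python 3.11.15. Log2 CPM had a prior count of 2. Correlations used 100000 permutations. Levels were compared between genes in FPKM with a pseudocount of 1 on the log2 scale. The steps that call genes were first tested on simulated counts.

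The genes named are the 6 genes, a list of other egg white genes, the neighbors in rank, the 3 genes most alike to each, and marker lists of the magnum, shell gland, isthmus, smooth muscle, red blood cells and leukocytes. Relatives of the 6 genes were chosen after their values were seen. The 6 genes and all lists were chosen with earlier results of these data known. Symbols were matched in the table or through RefSeq synonyms, by which ovalbumin, listed as OVA, was found, and the NCBI gene numbers of all 6 genes were in the RefSeq list. The replicate numbers of the groups belong to different animals and were not used as pairs in the main test. Alternatives covered the tool (DESeq2, or limma on log2 FPKM at pseudocounts 1 and 0.1), the scaling (library size only, or the size factors of DESeq2), the filter (none, or a minimum of 10 reads per hen), each hen left out in turn, Translucent-1 and Opaque-5 left out, the 6 hens numbered 1 to 3, the replicate block, and other denominators and scales for shares and correlations. The proteome was not analysed here.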

Additional observations from a re-analysis of the deposited data

Results flagged for a closer look

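Within the translucent hens, the SPINK7 value of Translucent-1, 134595 CPM, was separated from the nearest other hen by 0.817 of the group's whole range, and the summed share of the 6 genes in that hen, 13.8%, by 0.753. Within the opaque hens, Opaque-5 stood apart in the same way, with SPINK7 at 98719 CPM (0.859 of the range) and a summed share of 10.6% (0.785). The limit for 5 hens is 0.71. Of the 16 groups of values examined in this way 4 were set apart, all of them for SPINK7 or the summed share that SPINK7 dominates. Chance alone sets apart about 1 in 20. The 4 are Translucent-1 and Opaque-5, each counted for both linked values, so they are not separate events and cannot be set against that rate. These hens also stood apart on the first principal component of all genes and had the lowest scaling factors.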

How the results depend on the processing

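No egg white gene was called under any of the alternatives. DESeq2 called 4 genes, none of them among the 6, and every other alternative called 0, each hen left out in turn included (0 to 0). With each hen left out, the log2 fold change lay between 0.25 and 1.08 for AVD, 0.21 and 0.68 for LYZ, -0.081 and 0.40 for OVST, -0.58 and 0.21 for SPINK5, -0.029 and 0.54 for SPINK7 and -0.30 and 0.12 for TF, and the difference in summed share between -0.021 and 1.92 percentage points. Signs turned for SPINK7 without translucent replicate 1 (-0.029), for TF without translucent replicates 4 (0.05) or 5 (0.04) or opaque replicates 2 (0.12) or 5 (0.09), for OVST without translucent replicate 5 (-0.013) or opaque replicate 4 (-0.081), for SPINK5 without opaque replicate 4 (0.21), and for the share without translucent replicate 1 (-0.021). With the 6 hens numbered 1 to 3, signs turned for TF (0.34), OVST (-0.48) and SPINK5 (0.33), and SPINK7 (0.77), LYZ (0.75) and AVD (1.69) were more than 1.5 times their values over 10 hens. The cause was not tested. LYZ and AVD kept a positive sign in all 20 alternatives. In every alternative, 4 neighboring steps of the order of levels passed the threshold (4 to 4), but without opaque replicate 4 AVD stood above SPINK5, so the fourth step was then OVST over AVD. The step of OVST over SPINK5, followed by itself in a check chosen after seeing the data, had unadjusted exact sign-flip p-values between 0.0039 and 0.0234 with each hen left out. The spread without single hens was also added after seeing the data. Deviations from the group means put 1 pair, TF and AVD (r = 0.77), past the adjusted threshold, and the other ways of computing r put 0.

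With the replicate block, 0 genes were called and the log2 fold changes were 0.26 for SPINK7, -0.05 for TF, 0.42 for LYZ, 0.23 for OVST, -0.05 for SPINK5 and 0.51 for AVD. Across genes, the deviations of hens with equal numbers correlated at -0.13 on average (-0.42 to 0.10, 5 pairs). Whether hens of equal number shared a batch was not tested.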
